A study of Gallus gallus with 6 samples.

Results

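Translation factors are the proteins that bring ribosomes onto messenger RNA and move them along it. The group described here is every gene in the expression table whose symbol begins with EIF (eukaryotic initiation factor) or EEF (eukaryotic elongation factor) followed by a digit, leaving out the EIF2AK kinases. This gave 52 genes of 24433 in the table, 42 EIF and 10 EEF genes, called initiation and elongation genes here by symbol alone. They were measured in RNA from chicken primary myoblasts of leg muscle, in 3 libraries with ANKRD9 overexpression and 3 libraries with pcDNA3.1, a mammalian expression plasmid. ANKRD9 encodes an ankyrin repeat protein, and the series title places the work in purine metabolism. The cells are labelled as primary, and no source used here gives the number or age of the birds, the time after transfection, or the vector that carries ANKRD9. Whether replicate libraries stem from different cultures is not stated either, so p-values reflect variation among these 6 libraries that could be technical. All values are FPKM, which divide fragments by gene length and by sequencing depth, so levels of different genes can be compared. Comparisons between libraries depend on this scaling. The FPKM sums ran from 456888 in pcDNA3.1 replicate 1 to 489070 in ANKRD9 replicate 1, and counts under other scalings are given below.

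Initiation starts when eIF2, bound to GTP and the initiator transfer RNA, joins eIF1, eIF1A, eIF3 and eIF5 on the small ribosomal subunit. The cap of the messenger RNA is held by eIF4E, which binds the scaffold eIF4G and the helicase eIF4A. The 4E-binding proteins compete with eIF4G for eIF4E until the kinase complex mTORC1 phosphorylates them. After the start codon is found, eIF5B joins the large subunit, eEF1A then delivers each aminoacyl-transfer RNA, and eEF2 moves the ribosome forward. In muscle this machinery is known as a main point where growth signals set the rate of protein synthesis.

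The libraries held between 16158627 and 26310089 recovered reads. ANKRD9 itself had 90.5, 104 and 101 FPKM in the ANKRD9 libraries, against 9.46, 8.16 and 10.1 FPKM in the pcDNA3.1 libraries (log2 fold change 3.29, limma adjusted p = 5.44e-06). Of 10 myoblast markers, 8 were in the table and 7 reached a mean of 1 FPKM, and their summed level was 962 to 1069 FPKM with ANKRD9 and 941 to 992 FPKM with pcDNA3.1. Within that list MYF5, DES and MYF6 were higher and MYOD1 and PAX7 lower. Fibroblast markers summed to 1373 to 1474 FPKM with ANKRD9 and 1839 to 1887 FPKM with pcDNA3.1, with 6 of 7 lower. Leukocyte markers summed to 82.3 to 90.1 FPKM with ANKRD9 and 59.3 to 68.8 FPKM with pcDNA3.1. Of the 8, 4 were higher, NCF1, SPI1, RAC2 and CD3E. NCF1 averaged 41.7 FPKM with ANKRD9 and 24.3 FPKM with pcDNA3.1. CD74, which did not pass, went the other way, at 19.2 FPKM with ANKRD9 and 22.5 FPKM with pcDNA3.1. Over all genes tested, 16.3% were higher and 19.8% lower. Endothelial markers summed to 6.95 to 7.62 FPKM with ANKRD9 and 6.37 to 7.35 FPKM with pcDNA3.1. Adipocyte markers summed to 21.2 to 21.8 FPKM with ANKRD9 and 21.6 to 22.4 FPKM with pcDNA3.1. The endothelial list and the adipocyte list each had 1 gene higher and 1 lower. Erythroid markers summed to 0.0990 to 0.352 FPKM with ANKRD9 and 0.212 to 0.383 FPKM with pcDNA3.1, and HBE1 was at 0. The fibroblast and leukocyte sums separated the groups, while the myoblast, endothelial, adipocyte and erythroid sums overlapped. The part of the fibroblast and leukocyte markers in the results below was not tested. In bulk RNA, fewer cells of a type and less RNA per cell cannot be told apart.

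Where factor transcripts differed between the groups, they were mostly lower with ANKRD9. Of the 52 genes, 51 passed the filter of a mean of at least 1 FPKM, and EIF4E1B, a germline form of the cap-binding protein, was at 0.0340 to 0.121 FPKM and was not tested. In a limma fit over all 11685 genes tested, at an adjusted p under 0.05, 15 factor genes were lower, 2 were higher and 34 did not pass. Over all genes tested, 19.8% were lower and 16.3% were higher, against 29.4% and 3.92% of the factor genes. The median log2 fold change was -0.06 for the factor genes and -0.01 for all genes, and the factor genes ran from -0.43 to 0.19. By symbol, the lower genes were 13 of 41 tested EIF genes, EIF5A2 among them, and 2 of 10 EEF genes. Both higher genes were EIF genes. In 19 factor genes all 3 ANKRD9 libraries lay below all 3 pcDNA3.1 libraries, and in 5 they lay above, where 50.6% of all genes tested had groups that did not overlap in one direction or the other. Of the lower calls, 9 held under all 16 alternative analyses, and neither of the higher calls did. Without ANKRD9 replicate 2 the count of lower genes was 9. The count of higher genes was 0 without ANKRD9 replicate 1, ANKRD9 replicate 2 or pcDNA3.1 replicate 3, and 1 without ANKRD9 replicate 3. When FPKM were rescaled to the sum of recovered reads, an alternative chosen after seeing the data, 13 were lower and 5 higher.

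**Figure D1:**
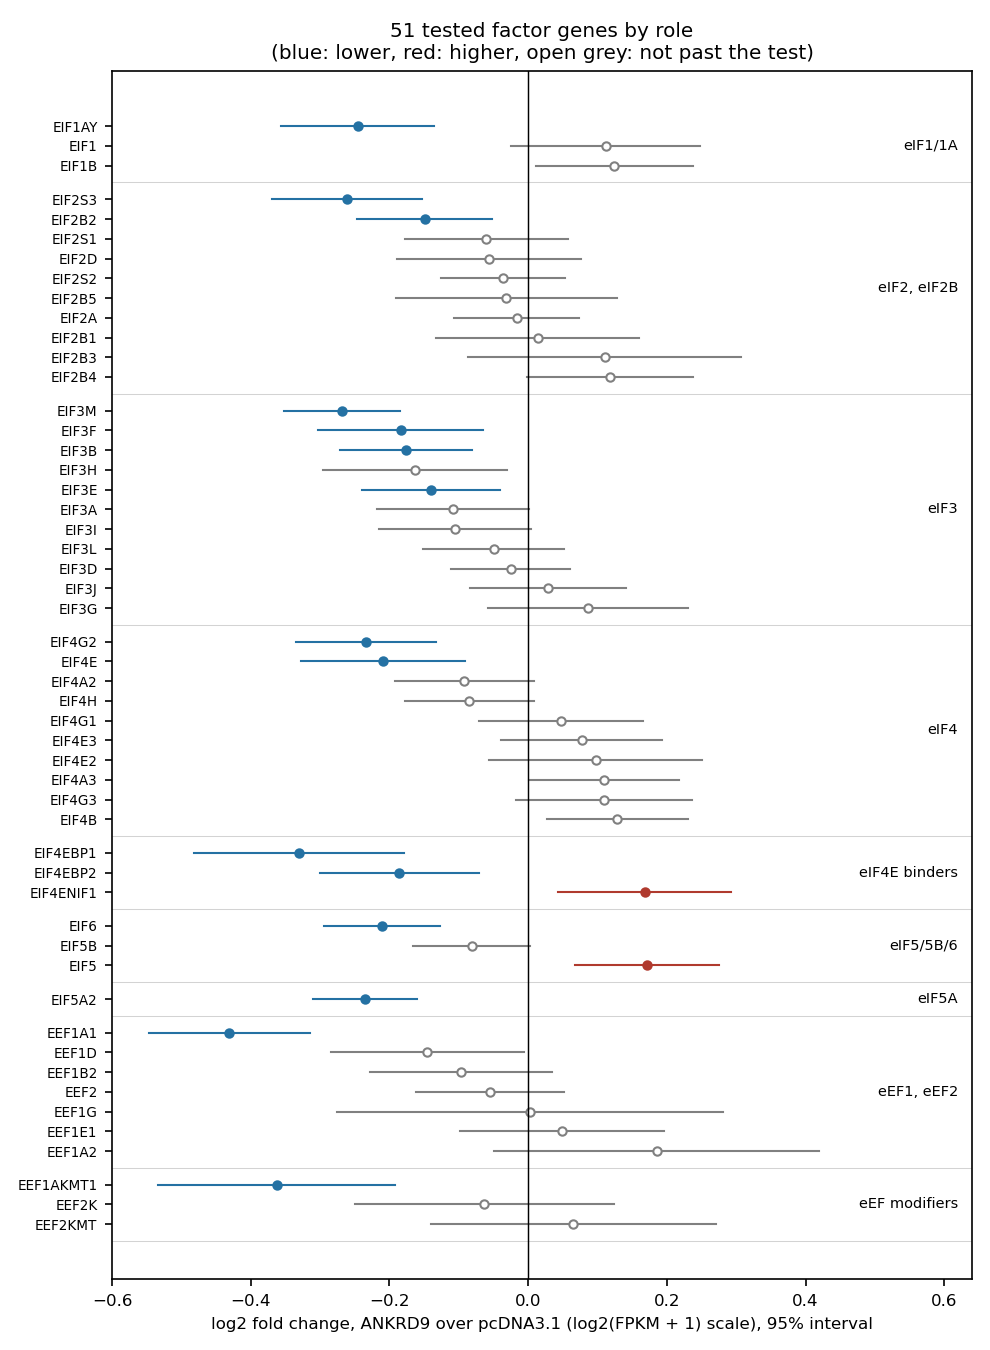
Log2 fold change of the 51 tested factor genes, ANKRD9 over pcDNA3.1 on the log2(FPKM + 1) scale, grouped by role, with lines for 95% confidence intervals. Blue points (15) are lower and red points (2) higher at an adjusted p under 0.05, and open grey points (34) did not pass. The values run from -0.43 for EEF1A1 to 0.19 for EEF1A2, whose interval crosses 0.

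Among the tested factor genes, the most abundant, EEF1A1, had the largest absolute log2 fold change on the log2(FPKM + 1) scale. As a plain ratio of means, the scarce EEF1AKMT1 was about as much lower, at 0.741 times its pcDNA3.1 level. EEF1A1 encodes the main form of eEF1A, the GTPase that carries aminoacyl-transfer RNA to the ribosome, and by mean level it ranked 9 of all genes in the table. It lies on chromosome 3 from 81503086 to 81507673 on the plus strand of GRCg6a. EEF1A1 had 1982, 1974 and 1944 FPKM in the ANKRD9 libraries, against 2614, 2720 and 2622 FPKM in the pcDNA3.1 libraries. The groups were far apart, with every ANKRD9 library below every control library and little spread within either group. The log2 fold change was -0.43 ± 0.05 (SE, adjusted p = 8.45e-04), a mean of 0.742 times the pcDNA3.1 level, and the adjusted p over the alternatives was 9.45e-05 to 0.0240.

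EEF1A2 is the eEF1A form that replaces EEF1A1 in mature mammalian muscle and neurons. It had 27.6, 26.2 and 24.0 FPKM with ANKRD9 and 19.3, 23.5 and 25.7 FPKM with pcDNA3.1. These ranges overlapped, and the log2 fold change of 0.19 (95% interval -0.05 to 0.42, adjusted p = 0.189) did not pass the test. Within each library, EEF1A1 exceeded EEF1A2 by 71.7, 75.4 and 80.9 times with ANKRD9, against 135, 116 and 102 times with pcDNA3.1. The ratio was smaller in all ANKRD9 libraries, which describes unequal levels of the pair and does not show that EEF1A2 was unchanged. The paralogs are similar in sequence, and no source used here says how reads matching both were counted.

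No other eEF1 or eEF2 factor gene passed the limma test, and EEF1D was the 1 of them with an unadjusted p under 0.05. EEF2, the translocase, averaged 465 ± 5.54 FPKM with ANKRD9 and 483 ± 21.2 FPKM with pcDNA3.1 (SD, n = 3 each), and the interval of its log2 difference was -0.16 to 0.05 (adjusted p = 0.378). The ratio of EEF1A1 to EEF2 was 4.23 ± 0.05 with ANKRD9 and 5.49 ± 0.22 with pcDNA3.1, with no overlap between libraries. EEF1B2 and EEF1D, which encode subunits of the complex that reloads eEF1A with GTP, had log2 fold changes of -0.10 (adjusted p = 0.217) and -0.15 (adjusted p = 0.0945, and 0.0259 without pcDNA3.1 replicate 1). EEF1E1, better known as a scaffold protein of the aminoacyl-transfer RNA synthetase complex, had one of 0.05 (adjusted p = 0.584). The row named EEF1G, for the gamma subunit of the same exchange complex, held 2.42 to 3.72 FPKM and at most 99 reads per library, far below the 277 to 331 FPKM of EEF1B2. That row lies wholly within PC, which encodes pyruvate carboxylase, on the opposite strand, and its gene ID has no entry in the RefSeq gene table, so its level is uncertain.

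Of the 3 genes for enzymes that modify elongation factors, 1 was lower. That is 33.3%, beside 19.8% lower and 16.3% higher over all genes tested, and nothing particular to these enzymes is read from it. EEF1AKMT1, a lysine methyltransferase of eEF1A in human cells, had 4.02, 4.44 and 4.76 FPKM with ANKRD9 and 5.81, 6.43 and 5.61 FPKM with pcDNA3.1. The groups did not overlap although this is one of the least abundant genes of the group (log2 fold change -0.36 ± 0.07, adjusted p = 0.00809). EEF2K, the kinase that inhibits eEF2, averaged 2.33 FPKM with ANKRD9 and 2.48 FPKM with pcDNA3.1 and did not pass (adjusted p = 0.570). EEF2KMT, which methylates eEF2 and was the most abundant of the 3, had 15.1, 12.1 and 13.1 FPKM with ANKRD9 and 13.6, 13.0 and 11.6 FPKM with pcDNA3.1, with overlapping ranges (adjusted p = 0.596).

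Transcripts of the cap-binding protein and of the 4E-binding proteins EIF4EBP1 and EIF4EBP2 were lower with ANKRD9. EIF4E had 26.5, 25.3 and 24.1 FPKM with ANKRD9 and 28.1, 29.5 and 30.6 FPKM with pcDNA3.1 (log2 fold change -0.21 ± 0.05, adjusted p = 0.0164). EIF4EBP1, a well known substrate of mTORC1, had 131, 129 and 133 FPKM with ANKRD9 and 149, 167 and 179 FPKM with pcDNA3.1 (-0.33 ± 0.07, adjusted p = 0.00734). EIF4EBP2, its paralog, had 58.1, 57.9 and 56.2 FPKM with ANKRD9 and 61.1, 67.5 and 67.9 FPKM with pcDNA3.1 (-0.19 ± 0.05, adjusted p = 0.0228). None of these 3 genes had overlapping groups, which largely follows from picking genes by a test on the same libraries. Groups did not overlap in 50.6% of all genes tested. For both repressors the control libraries spread more widely than the ANKRD9 libraries. The level of EIF4EBP1 over that of EIF4E was 5.18 ± 0.31 with ANKRD9 and 5.61 ± 0.27 with pcDNA3.1 (SD, n = 3 each), and these ranges overlapped. The third gene of this role, EIF4ENIF1, encodes a protein that carries eIF4E into the nucleus and represses bound messengers. It averaged 10.7 FPKM with ANKRD9 and 9.40 FPKM with pcDNA3.1 and was higher (0.17 ± 0.05, adjusted p = 0.0431).

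The EIF4E call was lost without ANKRD9 replicate 2, ANKRD9 replicate 3 or pcDNA3.1 replicate 3, at adjusted p of 0.0548, 0.0506 and 0.0578 and log2 fold changes of -0.21, -0.18 and -0.18. The EIF4EBP2 call was lost without any one library other than pcDNA3.1 replicate 1, at adjusted p of 0.0545 to 0.0760 and log2 fold changes of -0.19 to -0.16. The EIF4ENIF1 call was lost without any one of the same 5 libraries, at adjusted p of 0.0553 to 0.125 and log2 fold changes of 0.14 to 0.19. These folds stayed close to those from all 6 libraries. EIF4ENIF1 was also lost with equal FPKM sums, at an adjusted p of 0.152, and with no filter on low values (0.0762). In a fit with a replicate block, EIF4E (0.0578), EIF4EBP2 (0.0580) and EIF4ENIF1 (0.106) lost their calls. EIF4EBP1 kept its call throughout, with adjusted p of 0.00147 to 0.0327.

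Among the scaffolds, helicases and other partners of eIF4E, EIF4G2 fell as well. It encodes a relative of eIF4G that lacks the eIF4E site and serves cap-independent initiation. EIF4G2 had 417, 425 and 447 FPKM with ANKRD9 and 514, 498 and 505 FPKM with pcDNA3.1 (-0.23 ± 0.04, adjusted p = 0.00570). It was the most abundant gene of this role, at 4.59 ± 0.11 times the level of EIF4G1 with ANKRD9 and 5.58 ± 0.29 times with pcDNA3.1, with no overlap. The canonical scaffolds did not pass: EIF4G1 averaged 93.7 FPKM with ANKRD9 and 90.8 FPKM with pcDNA3.1 (adjusted p = 0.501), and EIF4G3 averaged 24.5 FPKM with ANKRD9 and 22.7 FPKM with pcDNA3.1 (adjusted p = 0.154, and 0.0308 without pcDNA3.1 replicate 1). EIF4A2, an eIF4A helicase, averaged 407 FPKM with ANKRD9 and 434 FPKM with pcDNA3.1 without passing (adjusted p = 0.131).

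EIF4B, which stimulates the helicase, stood just outside the threshold at 119 ± 1.04 FPKM with ANKRD9 and 108 ± 5.16 FPKM with pcDNA3.1 (SD, n = 3 each). Its groups did not overlap, and its adjusted p was 0.0532, against 0.0341 without pcDNA3.1 replicate 2. The remaining genes of this role, EIF4A3, EIF4E2, EIF4E3 and EIF4H, had log2 fold changes of -0.08 to 0.11 and adjusted p of 0.104 to 0.285. EIF4E2, a cap-binding relative that represses translation, stood at 1.82 ± 0.04 times EIF4E with ANKRD9 and 1.46 ± 0.07 times with pcDNA3.1. These ratios did not overlap, but EIF4E was itself lower and EIF4E2 did not pass (adjusted p = 0.285), so they show no change of EIF4E2.

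The transcript of a single eIF2 subunit was lower, while those of its partner subunits did not pass. EIF2S3 encodes the gamma subunit, which binds GTP and the initiator transfer RNA, and was the most abundant gene of the eIF2 group. EIF2S3 had 140, 133 and 137 FPKM with ANKRD9 and 155, 171 and 165 FPKM with pcDNA3.1 (-0.26 ± 0.05, adjusted p = 0.00489). The groups were clearly separate, and the call held in all alternatives. The alpha subunit gene EIF2S1, whose product the EIF2AK kinases phosphorylate, averaged 92.4 FPKM with ANKRD9 and 96.5 FPKM with pcDNA3.1 (adjusted p = 0.379), and the beta subunit gene EIF2S2 averaged 109 FPKM with ANKRD9 and 112 FPKM with pcDNA3.1 (adjusted p = 0.490). The ratio of EIF2S3 to EIF2S1 was 1.48 ± 0.02 with ANKRD9 and 1.70 ± 0.04 with pcDNA3.1, with no overlap.

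Of the 5 subunits of eIF2B, the factor that exchanges GDP for GTP on eIF2, EIF2B2 was lower at 53.9 ± 1.45 FPKM with ANKRD9 and 59.9 ± 2.07 FPKM with pcDNA3.1 (SD, n = 3 each; -0.15 ± 0.04, adjusted p = 0.0278). That call was lost without ANKRD9 replicate 1 or 2 or pcDNA3.1 replicate 1 or 2, at adjusted p of 0.0552 to 0.0932. It was also lost with a replicate block (0.0839). EIF2B1, EIF2B3, EIF2B4 and EIF2B5 had log2 fold changes of -0.03 to 0.12 and did not pass, nor did EIF2A and EIF2D, alternative carriers of initiator transfer RNA. Over the 10 genes of eIF2, eIF2B and these carriers, 2 were lower (20.0%) and 0 higher. That is close to the 19.8% lower over all genes tested, where 16.3% were higher, and nothing particular to these genes is read from the count.

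In the family of eIF1 and eIF1A, which guard start codon selection, the eIF1A gene alone passed. It was 1 of 3 genes (33.3% lower), beside 19.8% lower over all genes tested. The table calls it EIF1AY, and the same gene ID has the RefSeq symbol EIF1AX. EIF1AY had 99.0, 100 and 93.1 FPKM with ANKRD9 and 112, 122 and 113 FPKM with pcDNA3.1, with no overlap (-0.25 ± 0.05, adjusted p = 0.00681). EIF1, the most abundant of the 3, had 298, 283 and 273 FPKM with ANKRD9 and 246, 280 and 264 FPKM with pcDNA3.1, with overlapping ranges (0.11 ± 0.06, adjusted p = 0.177). Its paralog EIF1B averaged 11.1 FPKM with ANKRD9 and 10.1 FPKM with pcDNA3.1, with no overlap (adjusted p = 0.0818). Under other scalings, EIF1 passed as higher with quantile normalization (0.0147) and EIF1B with recovered read totals (0.0438).

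The complex eIF3, the largest initiation factor and the platform on the small subunit, had 4 of 11 measured subunit genes lower and none higher by limma. That is 36.4% lower, beside 19.8% over all genes tested. At an unadjusted p under 0.05, 5 were lower and 0 higher. The all-gene share at that threshold was not computed, so nothing is read from this count. EIF3M, which helps join eIF3 into 1 complex, had 94.6, 90.3 and 94.3 FPKM with ANKRD9 and 112, 113 and 112 FPKM with pcDNA3.1 (-0.27 ± 0.04, adjusted p = 0.00163). EIF3F had 37.9, 35.0 and 35.4 FPKM with ANKRD9 and 40.8, 39.2 and 43.4 FPKM with pcDNA3.1 (-0.18 ± 0.05, adjusted p = 0.0274). EIF3E, the most abundant subunit gene, had 145, 147 and 146 FPKM with ANKRD9 and 153, 165 and 166 FPKM with pcDNA3.1 (-0.14 ± 0.04, adjusted p = 0.0381). In all 3 the groups were separate, narrowly so for EIF3F and by the widest margin for EIF3M. Such separation was found in 50.6% of all genes tested and largely follows from picking genes by a test on the same libraries. EIF3B, a core subunit, averaged 56.4 ± 1.29 FPKM with ANKRD9 and 63.9 ± 2.25 FPKM with pcDNA3.1 (-0.18 ± 0.04, adjusted p = 0.0139).

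The EIF3M call held in all alternatives. The EIF3B call was lost without ANKRD9 replicate 2 (adjusted p = 0.0617). The EIF3F call was lost without ANKRD9 replicate 2, ANKRD9 replicate 3 or pcDNA3.1 replicate 3 (0.0990, 0.0773 and 0.0850). The EIF3E call was lost without any one library other than pcDNA3.1 replicate 1 (0.0864 to 0.118). A replicate block lost EIF3B (0.0545), EIF3F (0.0547) and EIF3E (0.0829). EIF3F and EIF3E were also lost with no filter on low values (0.0521 and 0.0603) and with recovered read totals (0.0509 and 0.0675). EIF3E was lost as well when the eBayes step had no trend (0.0611).

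The 7 subunit genes that did not pass had log2 fold changes of -0.16 to 0.09. EIF3H, which pairs with EIF3F in the complex, came nearest at 110 ± 5.37 FPKM with ANKRD9 and 124 ± 7.34 FPKM with pcDNA3.1 (adjusted p = 0.0589), and passed without pcDNA3.1 replicate 1 (0.0182). EIF3G, an RNA-binding subunit, averaged 158 FPKM with ANKRD9 and 149 FPKM with pcDNA3.1 (adjusted p = 0.308, and 0.0488 without pcDNA3.1 replicate 2). EIF3I, a scaffold subunit, averaged 131 FPKM with ANKRD9 and 142 FPKM with pcDNA3.1 (adjusted p = 0.121, and 0.0208 without pcDNA3.1 replicate 1). Over the 11 subunit genes the median log2 fold change was -0.11 and 9 values were below 0, and their mean levels spanned 38.6 to 154 FPKM. Over all 11685 genes tested, 5965 values were below 0. EIF3C and EIF3K were not analysed here.

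**Figure D2:**
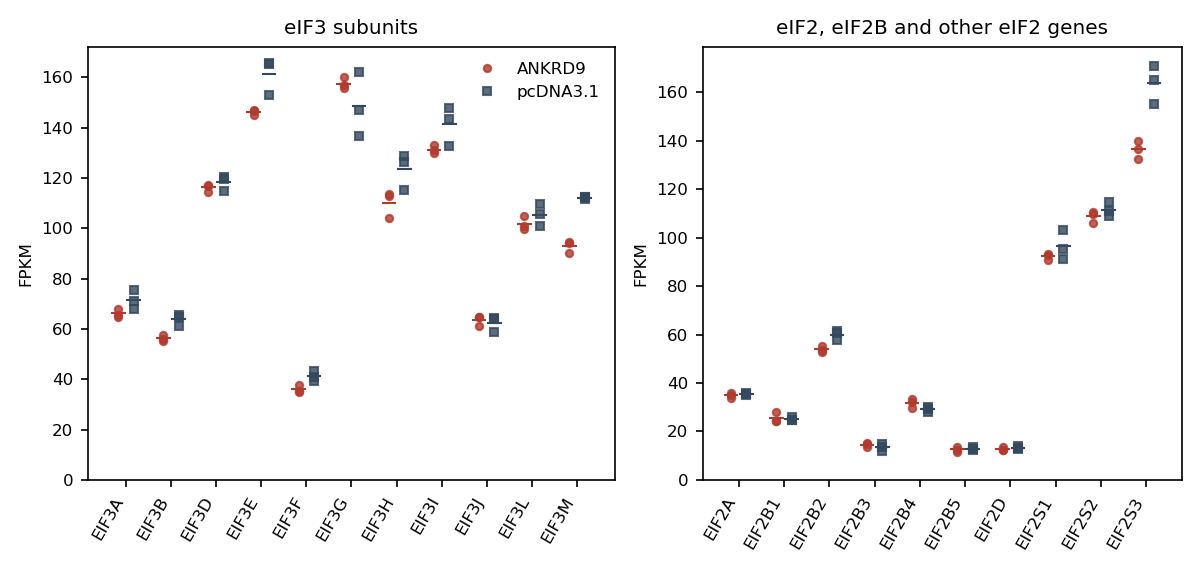
FPKM of the 11 eIF3 subunit genes (left) and the 10 genes of eIF2, eIF2B and related carriers (right), with a point for each library and a short line for the mean of 3 libraries, ANKRD9 in red circles left of pcDNA3.1 in dark squares. EIF3M (90.3 to 94.6 FPKM with ANKRD9, 112 to 113 FPKM with pcDNA3.1) and EIF2S3 (133 to 140 FPKM with ANKRD9, 155 to 171 FPKM with pcDNA3.1) stand apart, while EIF2S1 and EIF2S2 overlap.

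Transcripts of the factors that act around subunit joining moved in different directions. EIF5, which makes eIF2 hydrolyse its GTP at the start codon, had 364, 364 and 342 FPKM with ANKRD9 and 306, 325 and 318 FPKM with pcDNA3.1. It was the clearer of the 2 higher genes, with no overlap (0.17 ± 0.04, adjusted p = 0.0209). The call was lost without ANKRD9 replicate 1, ANKRD9 replicate 2 or pcDNA3.1 replicate 3 (0.0760, 0.0928 and 0.0578). It was also lost with a replicate block (0.0667). EIF6, which keeps the large subunit from joining too early, had 38.9, 37.7 and 37.9 FPKM with ANKRD9 and 45.0, 44.6 and 43.5 FPKM with pcDNA3.1, and was lower in every alternative (-0.21 ± 0.04, adjusted p = 0.00407). EIF5B, the GTPase of subunit joining, averaged 41.0 FPKM with ANKRD9 and 43.5 FPKM with pcDNA3.1 and did not pass (adjusted p = 0.118) although its groups did not overlap.

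EIF5A2 encodes a form of eIF5A, the hypusine-bearing factor that helps ribosomes past stalling sequences. EIF5A2 had 77.3, 77.8 and 77.3 FPKM with ANKRD9 and 91.5, 91.6 and 91.1 FPKM with pcDNA3.1. The libraries of each group lay closer together than for any other of these genes shown by library, and the log2 fold change was -0.24 ± 0.03 (adjusted p = 0.00179). A row outside the naming rule, LOC107050352, carries the RefSeq symbol EIF5A and is 259 bases long. It had 157, 420 and 335 FPKM with ANKRD9 and 217, 354 and 324 FPKM with pcDNA3.1, so widely spread within both groups that no difference was detectable (95% interval of the log2 difference -0.88 to 0.76).

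**Figure D3:**
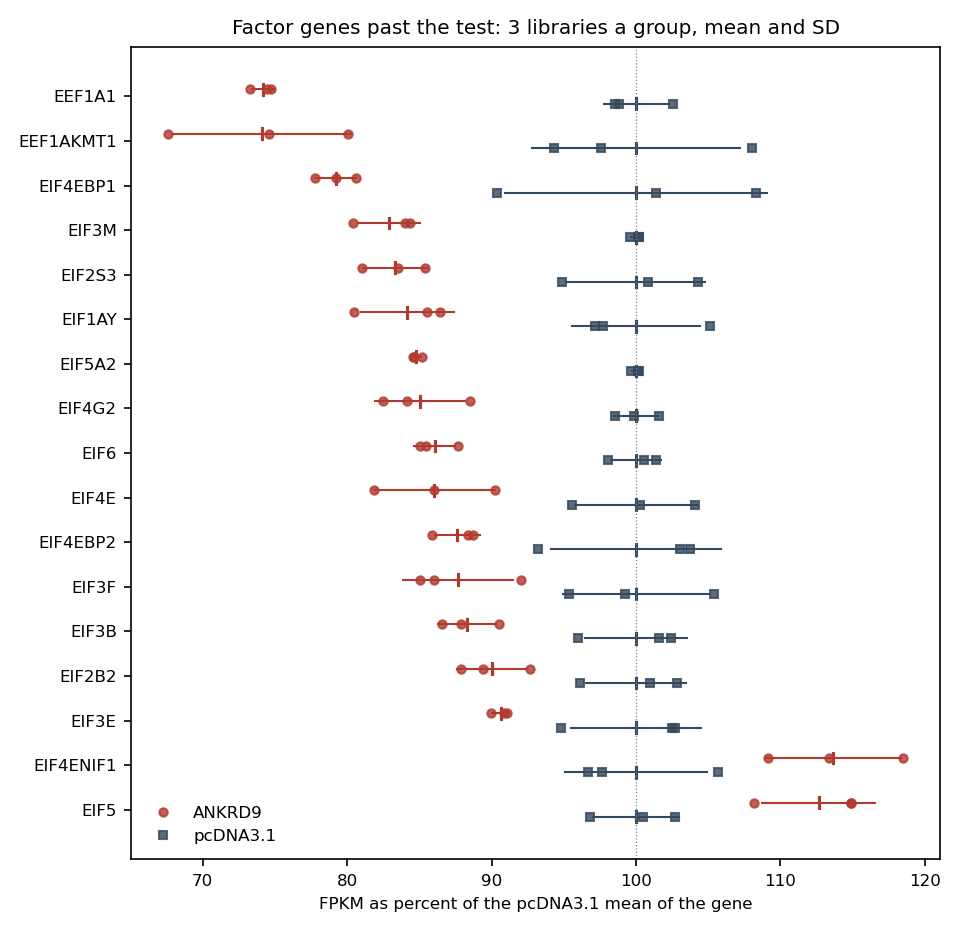
Each of the 17 factor genes past the threshold, plotted as FPKM in percent of the gene's pcDNA3.1 mean, with a point per library and a tick and line for the mean and SD of 3 libraries, ANKRD9 in red above pcDNA3.1 in dark blue. The 15 lower genes lie left of their controls and EIF5 and EIF4ENIF1 right of them. The groups of each gene do not overlap, which largely follows from picking genes by a test on the same libraries.

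Lower genes were found among abundant and scarce factor genes. Among the 17 genes past the threshold, absolute log2 fold changes ran from 0.14 to 0.43. Of the 21 tested factor genes averaging 100 FPKM or more, 7 were lower (33.3%) and 1 was higher (4.76%). Of the 30 under 100 FPKM, 8 were lower (26.7%) and 1 was higher (3.33%). Over all genes tested, at any level, 19.8% were lower and 16.3% higher. Those all-gene shares were not split by level. The median coefficient of variation within a group was 3.02% with ANKRD9 and 4.76% with pcDNA3.1. In 27 of the 51 tested genes pcDNA3.1 replicate 1 was the lowest of the controls.

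**Figure D4:**
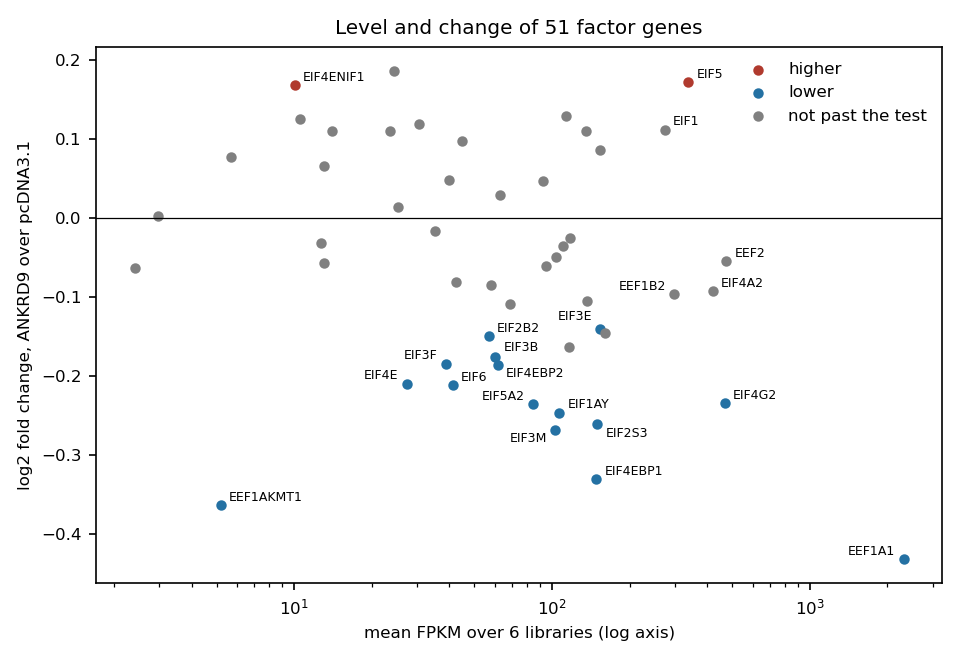
Mean FPKM over 6 libraries (log axis) against log2 fold change, ANKRD9 over pcDNA3.1, for the 51 tested factor genes. Lower genes are in blue, higher genes in red and the rest in grey. EEF1A1 lies lowest and farthest right, and the lower genes spread from EEF1AKMT1, with a group mean of 4.41 FPKM with ANKRD9 and 5.95 FPKM with pcDNA3.1, to EEF1A1.

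The summed level of all 52 genes was 7052, 7042 and 6957 FPKM with ANKRD9 and 7803, 8180 and 7910 FPKM with pcDNA3.1. EEF1A1 made up 27.9 to 28.1% of that sum with ANKRD9 and 33.1 to 33.5% with pcDNA3.1. Without EEF1A1 the sums were 5070, 5068 and 5013 FPKM with ANKRD9 and 5188, 5460 and 5288 FPKM with pcDNA3.1. The ANKRD9 libraries lay below the controls with EEF1A1 and also, by a narrower gap, without it. In recovered reads, the factor genes took 1.57 to 1.58% of a library with ANKRD9 and 1.72 to 1.76% with pcDNA3.1.

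Of the factor genes, 11 belong to the human messengers that begin with a terminal oligopyrimidine tract (TOP), whose translation mTORC1 and LARP1 control. The list comes from human genes and the starts of the chicken transcripts were not examined. It holds 17 genes, none with a ribosomal protein symbol (RPL or RPS). The counts below describe these genes and not all messengers of this kind. Of the 17 listed genes, limma called 8 lower and none higher (10 lower and 1 higher at an unadjusted p under 0.05). That is 47.1% lower, beside 19.8% lower and 16.3% higher over all genes tested, and nothing particular to the list is read from it. The all-gene share at an unadjusted p was not computed. The list had a median log2 fold change of -0.15 against -0.01 for all genes tested. The count of lower genes was 5 without ANKRD9 replicate 2, ANKRD9 replicate 3 or pcDNA3.1 replicate 3, and up to 10 without another library. Of the 11 factor genes on the list, 4 were lower, EEF1A1, EIF2S3, EIF3F and EIF3E. Of the 40 tested factor genes not on it, 11 were lower and 2 higher. Among the 6 listed genes that are not factors, 4 were lower (66.7%), RACK1 and PABPC1 included, 0 were higher and 2 did not pass. RACK1, which encodes a ribosome-bound scaffold, averaged 484 ± 16.2 FPKM with ANKRD9 and 566 ± 6.51 FPKM with pcDNA3.1 (SD, n = 3 each; -0.22 ± 0.04, adjusted p = 0.00634). TPT1, 1 of the 2 that did not pass, averaged 985 FPKM with ANKRD9 and 979 FPKM with pcDNA3.1 (adjusted p = 0.934).

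Around the factors, 84 tested genes of 8 lists, without the factors themselves, gave 16 lower and 9 higher. That is 19.0% and 10.7%, beside 19.8% and 16.3% over all genes. Without ANKRD9 replicate 2 the counts were 7 lower and 5 higher. Without ANKRD9 replicate 1, 9 were lower, and without pcDNA3.1 replicate 3, 10 were lower. For the genes named below, calls lost by leaving out a library are given with each gene. With a replicate block the LARP1, LAMTOR1, GCN1 and DPH3 calls were lost too. With no filter on low values the LARP1, RHEB and LAMTOR2 calls were lost. Equal FPKM sums lost the GCN1, PELO and DPH3 calls, and recovered read totals the GCN1 call.

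Among the partners, transcripts of a kinase of eIF4E were higher and those of a poly(A)-binding protein were lower. MKNK2, a MAP kinase target that phosphorylates eIF4E on its scaffold, had 22.0, 21.0 and 21.4 FPKM with ANKRD9 and 14.8, 15.4 and 14.7 FPKM with pcDNA3.1 (0.49 ± 0.04, adjusted p = 2.50e-04). PABPC1, which bridges the poly(A) tail to eIF4G, had 314, 308 and 316 FPKM with ANKRD9 and 389, 392 and 385 FPKM with pcDNA3.1 (-0.31 ± 0.04, adjusted p = 8.67e-04). Both were separate by many times the spread within a group, and both calls held in all alternatives. PAIP2, an inhibitor of the poly(A)-binding protein, was higher at 87.1 ± 2.69 FPKM with ANKRD9 and 73.8 ± 4.03 FPKM with pcDNA3.1 (0.24 ± 0.05, adjusted p = 0.00902).

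In the list of poly(A) and helicase partners 3 of 11 genes were lower and 1 higher. That is 27.3% and 9.09%, beside 19.8% and 16.3% over all genes tested. PDCD4, an inhibitor of eIF4A, averaged 20.2 FPKM with ANKRD9 and 23.0 FPKM with pcDNA3.1 (-0.18 ± 0.04, adjusted p = 0.0151), and lost the call without ANKRD9 replicate 2 (0.0522). LARP1 averaged 34.9 FPKM with ANKRD9 and 41.1 FPKM with pcDNA3.1 (-0.23 ± 0.06, adjusted p = 0.0232), and lost it without ANKRD9 replicate 1 or 2 (0.0776 and 0.0650). Of the 16 tested mTORC1 and MNK genes, 2 were lower and 2 higher, 12.5% each, which is below both all-gene shares. RHEB, the GTPase that activates mTORC1, averaged 5.13 FPKM with ANKRD9 and 7.05 FPKM with pcDNA3.1 (-0.38 ± 0.11, adjusted p = 0.0291). LAMTOR1 was higher (0.18 ± 0.04, adjusted p = 0.0161) and LAMTOR2 lower (-0.27 ± 0.08, adjusted p = 0.0307), although both encode parts of the lysosomal anchor of mTORC1. RHEB lost the call without ANKRD9 replicate 1 or 2 or pcDNA3.1 replicate 2 or 3 (0.0673 to 0.0870), LAMTOR2 without any one library other than pcDNA3.1 replicate 1 (0.0722 to 0.0950), and LAMTOR1 without ANKRD9 replicate 1 or 2 (0.0580 and 0.0525). MTOR itself averaged 10.9 FPKM with ANKRD9 and 11.3 FPKM with pcDNA3.1 (adjusted p = 0.591).

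Of the kinases that phosphorylate eIF2 alpha, EIF2AK2, also called PKR and activated by double-stranded RNA, was the 1 that passed. EIF2AK2 had 56.5, 55.7 and 57.6 FPKM with ANKRD9 and 48.5, 47.1 and 49.2 FPKM with pcDNA3.1 (0.23 ± 0.04, adjusted p = 0.00327). The groups were separate, and the call held in all alternatives. EIF2AK1, the heme-regulated kinase, averaged 16.5 FPKM with ANKRD9 and 14.4 FPKM with pcDNA3.1 (adjusted p = 0.0714), EIF2AK3, the endoplasmic reticulum kinase, 18.8 FPKM with ANKRD9 and 18.9 FPKM with pcDNA3.1 (0.968), and EIF2AK4, the amino acid sensor, 6.28 FPKM with ANKRD9 and 6.77 FPKM with pcDNA3.1 (0.294). GCN1, a partner of EIF2AK4 on the ribosome, was lower (-0.15 ± 0.04, adjusted p = 0.0318), and it lost the call without any one library other than pcDNA3.1 replicate 2 (0.0570 to 0.0962).

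At the end of the cycle, ABCE1, which splits ribosomes after termination, averaged 67.8 FPKM with ANKRD9 and 78.3 FPKM with pcDNA3.1 (-0.21 ± 0.04, adjusted p = 0.00549). ETF1, the release factor that reads stop codons, averaged 44.3 FPKM with ANKRD9 and 51.2 FPKM with pcDNA3.1 (-0.20 ± 0.04, adjusted p = 0.0111). PELO, which rescues stalled ribosomes, was higher (0.17 ± 0.04, adjusted p = 0.0188), a call lost without ANKRD9 replicate 1 or 2 or pcDNA3.1 replicate 3 (0.0622 to 0.0743). These were 3 of 7 genes tested, 28.6% lower and 14.3% higher, beside 19.8% and 16.3% over all genes tested. The cytosolic synthetase list held 21 genes, including AIMP1 and AIMP2, which encode scaffold proteins of the synthetase complex and did not pass. Of the 21, 5 were lower, among them IARS (-0.29 ± 0.05, adjusted p = 0.00375) and DARS (-0.16 ± 0.03, adjusted p = 0.0108). Another 3 were higher, among them YARS (0.19 ± 0.04, adjusted p = 0.00665) and CARS (0.20 ± 0.04, adjusted p = 0.00871). That is 23.8% lower and 14.3% higher, beside 19.8% and 16.3% over all genes tested, and nothing particular to this list is read from it. The count of lower synthetase genes was 2 without ANKRD9 replicate 2, and 3 without ANKRD9 replicate 1, pcDNA3.1 replicate 2 or pcDNA3.1 replicate 3. Of the 8 tested hypusine and diphthamide genes, DPH3 was higher (0.17 ± 0.05, adjusted p = 0.0238), and lost the call without ANKRD9 replicate 2 or 3 or pcDNA3.1 replicate 3 (0.0736 to 0.0795). None of the 9 mitochondrial translation factors passed by limma (3 higher and 0 lower at an unadjusted p under 0.05). Of the 9 log2 fold changes, 8 were above 0, with a median of 0.11. Over all 11685 genes tested, 5720 were above 0, with a median of -0.01. The all-gene share at an unadjusted p was not computed, and nothing particular to this list is read from these counts. Without pcDNA3.1 replicate 2, TSFM, a mitochondrial elongation factor, passed (adjusted p = 0.00154).

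**Figure D5:**
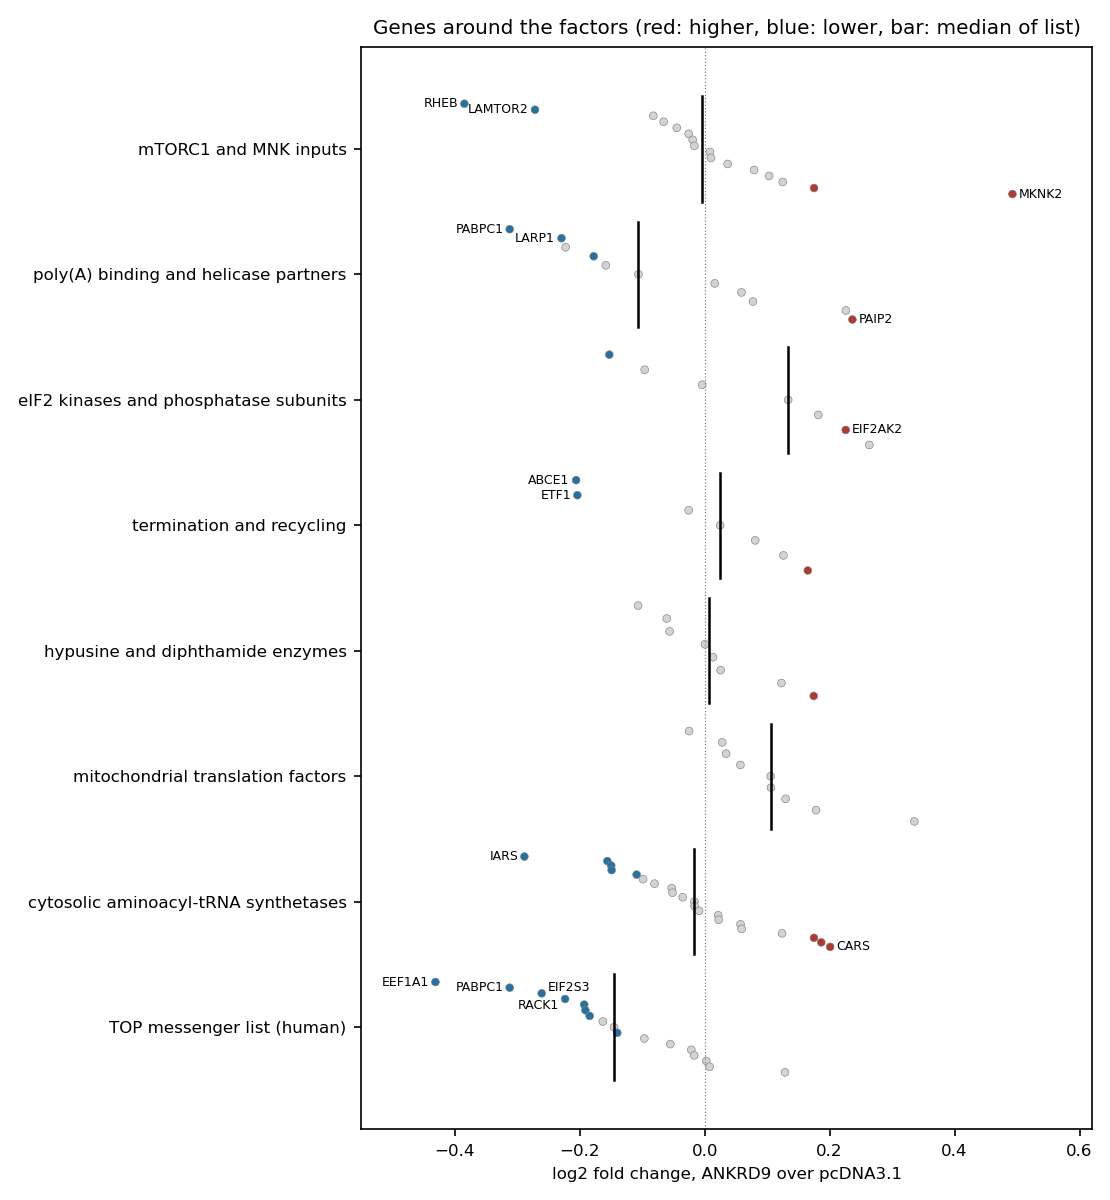
Log2 fold change, ANKRD9 over pcDNA3.1, of each tested gene in 8 lists of genes around the factors, with a black bar for the median of each list. Lower genes are in blue, higher genes in red and genes that did not pass in grey, and points are spread vertically for display. MKNK2 (0.49) lies farthest right and EEF1A1 (-0.43), in the TOP list, farthest left. The list medians run from -0.15 in the TOP list to 0.13 in the eIF2 kinase and phosphatase list.

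Of the 52 genes, 50 have a chromosome name, and they lie on 23 chromosomes. Of the 52, 19 overlap another gene in the table, 12 of them on the opposite strand, and no source used here says whether counting used strand. EIF3M overlaps a long noncoding RNA and CCDC73, with means of 1.03 and 0.685 FPKM over 6 libraries, and EIF6 overlaps MMP24, with a mean of 2.63 FPKM. The levels of these neighbours were a small part of those of EIF3M (103 FPKM) and EIF6 (41.3 FPKM). The genomic span of EIF3A, from gene start to gene end, overlaps that of NANOS1 over 1300 bases. NANOS1 is listed at 116 FPKM against 68.8 FPKM for EIF3A, and reads within the shared stretch cannot be told apart without strand. Overlaps with protein-coding genes on the same strand cannot be resolved by strand at all. These were EEF2K (2.41 FPKM) with POLR3E (10.7 FPKM), EIF2B5 (12.7 FPKM) with DVL3 (28.3 FPKM), and EIF4G3 (23.6 FPKM) with ECE1 (14.2 FPKM). A small nucleolar RNA gene lies inside 7 of the genes on the same strand, among them EIF4G2, which was lower, and EIF5, which was higher.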

How the data were processed

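Polyadenylated RNA of 6 samples was sequenced, 3 per group, with RNeasy extraction and an NEBNext Ultra RNA kit, per the labels' protocols, which name 2 different input amounts. CASAVA and the build GRCg6a (galGal6) are named in the submitters' processing notes. No source used here names the aligner, the counter, whether it used strand, or how it treated reads matching several genes. The authors deposited FPKM per gene in 1 table, per the file headers, and 0 value columns were left without a sample. FPKM times gene length gave whole reads for 100% of values within a tolerance of 0.01. No count test was run. Against the recovered reads, the totals behind the deposited FPKM were larger by 1.45, 1.11 and 1.02% with ANKRD9 and differed by -0.471, -1.08 and -0.161% with pcDNA3.1. Read numbers cover counting error only.

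Values were turned into log2(FPKM + 1), a scale on which folds of scarce genes come out too small. The 11685 genes averaging 1 FPKM or more were fitted by group in limma 3.58.1 (R 4.3.3) with a trended eBayes step. Adjusted p-values are Benjamini-Hochberg values over these 11685 genes, and the threshold was 0.05. Levels are FPKM means ± SD, and ± after a log2 fold change is the SE. The fit was tested on simulated data, a check that required recovery only of folds larger than those of the called factor genes. Library values are shown for the 12 genes past the threshold with the largest absolute log2 fold change and for the most abundant gene of each role, beside EEF1A2 as the paralog of EEF1A1, LOC107050352, and MKNK2, PABPC1 and EIF2AK2 from the lists. Up to 4 genes of smallest adjusted p were named per list, plus EIF2AK1 to EIF2AK4, and TPT1, MTOR and LOC107050352, and which further library values to show, were chosen after their values were seen. The factor genes and the lists were chosen with earlier results of these data known. Chromosome names come from RefSeq genes of assembly GRCg7b that share IDs with the table, where at least 90% agreed, and coordinates are those of the table. Of the 52 gene IDs, 51 are in that RefSeq table. Sequences of the genes were not used here. Alternatives covered the pseudocount, the filter, 4 other scalings, the spread model, a replicate block and leaving out each library.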

Additional observations from a re-analysis of the deposited data

How the results depend on the processing

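Under 16 alternatives no called factor gene reversed its direction, 9 of the 17 kept their call in all, 8 lost it in at least 1, and 10 others gained one. Among the scalings, equal sums of FPKM gained EEF1D, EIF3I and EIF3H. Quantile normalization gained EEF1B2, EIF1, EEF1D, EIF3H and EIF4B, and recovered read totals gained EIF4A3, EIF4B and EIF1B. The count of higher factor genes (2) became 1 with no filter on low values, 1 with equal sums of FPKM, 4 with quantile normalization and 5 with recovered read totals, which was chosen after seeing the data. Leaving out 1 library gave 0 to 3 higher and 9 to 17 lower factor genes, and 5 to 12 higher and 7 to 14 lower genes of the partner lists. Deviations from the group means correlated at -0.20, 0.03 and -0.08 between libraries of the same number. Between libraries of different numbers they correlated at -0.10 to 0.16. With 3 libraries a group, whose deviations sum to 0, these values cannot decide whether samples were paired by number. The labels do not state it either. With a replicate block 0 factor genes were higher and 9 lower, and 10 partner genes were lower. Scaling shifted the median log2 fold change of all genes by at most 0.02. Over all genes the reported analysis gave 1900 higher and 2310 lower, equal sums 1513 and 2316, and recovered read totals 2242 and 2006. The causes were not tested. With 3 libraries a group, an exact permutation test of 1 gene cannot give a p under 0.10, and EEF1G and EIF4E1B were limited by few reads.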
